A study of Sus scrofa with 12 samples.

Results

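The 10 genes described here code for proteins of the smooth muscle contractile apparatus: the actins ACTA2 and ACTG2, the tropomyosins TPM1 and TPM2, caldesmon (CALD1), the regulatory myosin light chain MYL9, desmin (DES), transgelin (TAGLN), calponin (CNN1) and the smooth muscle myosin heavy chain (MYH11). They were found by their Ensembl pig gene symbols, and all 10 were present among the 19681 genes of each library. Values were compared in 12 libraries of 4 groups with 3 biological replicates per group, lettered A to C. IEC2, IEC4 and IEC12 are porcine iPS cells at days 2, 4 and 12 of an induction towards endothelium, and AOC is a porcine endothelial cell line that served as the endpoint and does not come from these iPS cells. According to the study's methods, the iPS cells were plated on Matrigel with the ROCK inhibitor Y27632, received CHIR99021 up to the IEC2 stage, and then BMP4, FGF2 and VEGF up to the IEC4 stage. From then on they were kept in EGM-2, an endothelial growth medium, with added VEGF. The IEC libraries were made from the whole culture before any sorting, so a value is an average over all cells present. Whether the replicates were separate inductions is not given in the sources used here, and the p-values measure the spread between these libraries.

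In smooth muscle, actin filaments slide along myosin when the regulatory light chain is phosphorylated by myosin light chain kinase, and relax when myosin phosphatase removes the phosphate. Tropomyosin and caldesmon lie along the actin filament and control the access of myosin, and desmin filaments tie the apparatus to the cell membrane. Many of these genes carry binding sites for serum response factor (SRF), which works with myocardin in differentiated smooth muscle and with the MRTF proteins in many cell types. Several of them are therefore also used by migrating, spreading or epithelial cells, whereas CNN1 and MYH11 are regarded as markers of mature smooth muscle.

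Each gene has 1 FPKM value per library (sequenced fragments divided by transcript length and library size), which corrects for length, so that levels of different genes may be compared. Summed over all genes, a library held 335976 to 457194 FPKM, and 8357 to 10467 genes reached an FPKM of 1. The number of fragments behind a library cannot be read from these values, and no counting interval is given. The 12 mitochondrial genes took 1.95 to 2.19% of the sum in IEC2, 4.28 to 7.10% in IEC4, 7.77 to 15.01% in IEC12 and 5.65 to 7.05% in AOC. The RNA of endothelial markers was low in these whole cultures of induced cells. The study nevertheless sorted cells positive for the endothelial protein CD31 from day 12 cultures, and the sorted cells stained for other endothelial proteins. CDH5, the adhesion molecule of endothelial junctions, was listed at 0 in all 9 IEC libraries, and the 9 endothelial markers found summed to 0.415 to 0.559 FPKM in IEC12 against 294 to 419 in AOC. Differences were tested with limma on log2(FPKM + 1), on which changes of low genes come out too small, with the p-value adjusted by the Benjamini-Hochberg method over all genes of the fit and called at an adjusted p under 0.05.

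**Figure D1:**
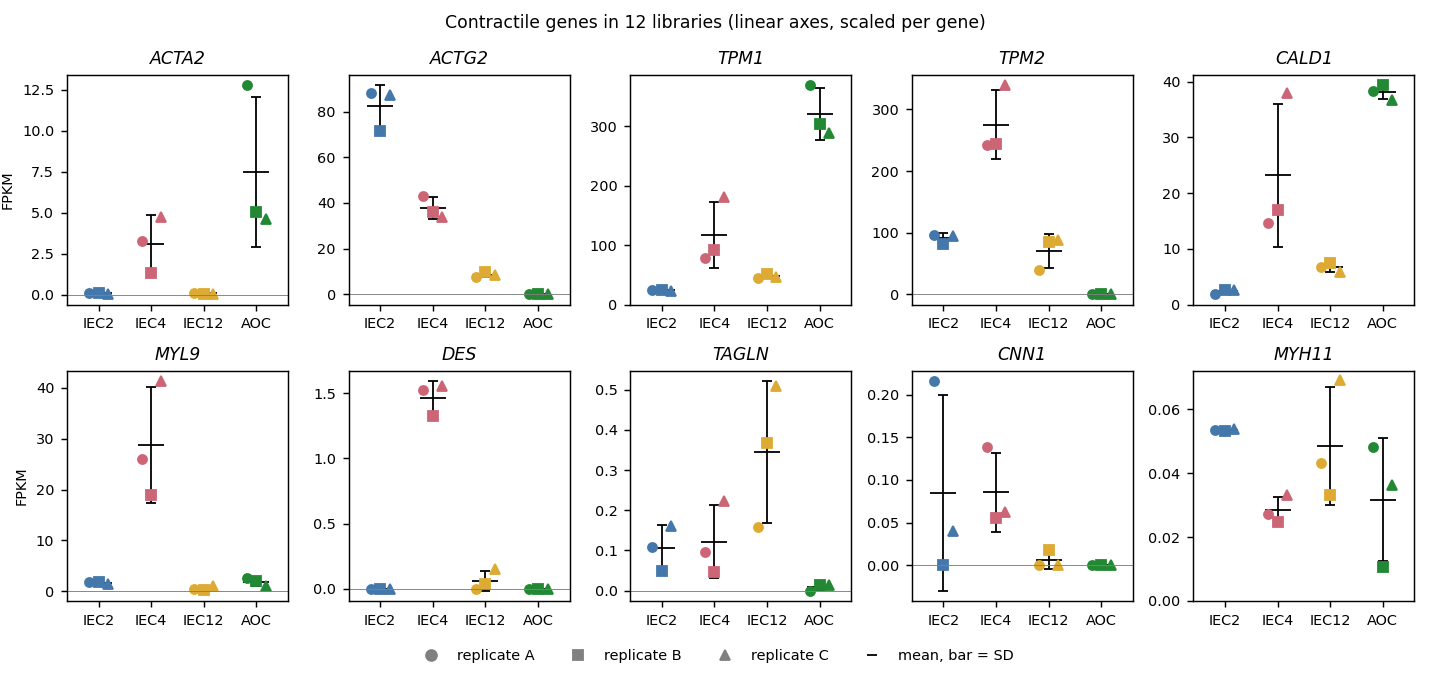
FPKM (y axis, linear, scaled for each gene) of the 10 contractile genes in the 3 libraries of IEC2, IEC4, IEC12 and AOC (x axis); symbols are replicates, the dash is the mean and the bar the SD. MYL9, TPM2 and DES were highest in IEC4, TPM1, CALD1 and ACTA2 in AOC, and ACTG2 in IEC2, while TAGLN, CNN1 and MYH11 stayed at or below 0.509.

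The FPKM of the 10 genes summed to 182 to 213 in IEC2, 409.8 to 640 in IEC4, 98.8 to 153 in IEC12 and 331 to 424 in AOC. As a share of the library's sum this was 0.0588% ± 0.0048 in IEC2, 0.134% ± 0.030 in IEC4, 0.0326% ± 0.0096 in IEC12 and 0.0852% ± 0.012 in AOC (mean ± SD, n = 3 each). No 2 groups overlapped in this share. The genes that made up the sum differed between groups. TPM2 and ACTG2 took 45.2% and 40.7% of it in IEC2, TPM2 and TPM1 took 57.3% and 23.2% in IEC4 and 51.2% and 36.3% in IEC12, and TPM1 alone took 86.9% in AOC. A change in such a level may come from fewer cells of a type or from less RNA per cell, and the 2 cannot be told apart in these libraries.

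The 2 smooth muscle actins ran in different directions. ACTG2 (ENSSSCG00000008294; RefSeq places the gene of this symbol on chromosome 3 at 69097366 to 69121542 of Sscrofa11.1), the actin typical of gut and other visceral smooth muscle, was listed at FPKM 88.0, 71.5 and 87.4 in IEC2 (replicates A, B and C), 43.1, 35.9 and 33.8 in IEC4, 7.65, 9.67 and 8.41 in IEC12 and 0.0700, 0.0195 and 0.0581 in AOC. Every group lay below the one before it with no overlap. ACTG2 fell by 1.11 on the log2 scale from IEC2 to IEC4 (SE 0.15, adjusted p = 0.000457) and by a further 2.01 from IEC4 to IEC12 (SE 0.15, adjusted p = 2.28e-05). AOC was lower than IEC12 by another 3.18 (log2 fold change -3.18, SE 0.14, adjusted p = 4.71e-09).

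ACTA2 (ENSSSCG00000010447; chromosome 14, 100868145 to 100886732), the alpha actin of vascular smooth muscle and of myofibroblasts, was near 0 in IEC2 with FPKM values of 0.146, 0.0883 and 0.0598. It reached 3.26, 1.31 and 4.77 in IEC4 and returned to 0.131, 0.0621 and 0.0688 in IEC12. The 3 IEC4 libraries lay above all IEC2 and IEC12 libraries, and the ratio of the mean FPKM of IEC4 to that of IEC2 was 31.8. On the log2(FPKM + 1) scale ACTA2 rose by 1.81 from IEC2 to IEC4 (SE 0.29, adjusted p = 0.00110) and fell by 1.82 from IEC4 to IEC12 (SE 0.29, adjusted p = 0.00104). Among the IEC libraries ACTA2 reached the FPKM of 1 needed for testing only in IEC4, so this difference was built into being tested. IEC12 and IEC2 overlapped (log2 fold change -0.01, SE 0.29, adjusted p = 0.974). The AOC values were 12.8, 5.03 and 4.65, above those of IEC2 and IEC12. They overlapped with IEC4, and the log2 fold change of 1.02 (SE 0.35, adjusted p = 0.0231) was no longer called without AOC replicate A (0.60, adjusted p = 0.105), without IEC4 replicate B (0.65, adjusted p = 0.107), with all libraries scaled to the same sum (0.81, adjusted p = 0.0568) or in a fit of AOC and IEC4 alone (adjusted p = 0.0609).

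Within a library the 2 actins can be set against each other without any scaling between libraries. The ratio of ACTG2 to ACTA2 was 604 to 1463 in IEC2, 7.09 to 27.5 in IEC4, 58.3 to 156 in IEC12 and 0.00388 to 0.0125 in AOC. None of the 4 groups overlapped. ACTG2 was the higher of the pair in every IEC library and ACTA2 in every AOC library. For each pair of groups an exact permutation test (two-sided) gave p = 0.1, the smallest that 3 libraries against 3 allow.

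The 2 tropomyosins parted in AOC. TPM1 (ENSSSCG00000004570; chromosome 1, 108986981 to 109016090), whose isoforms are made in muscle and in non-muscle cells, stood at FPKM 24.1, 24.1 and 23.6 in IEC2, 78.6, 91.0 and 180.4 in IEC4, 44.4, 50.8 and 46.7 in IEC12 and 369.7, 303 and 288 in AOC. The 4 groups did not overlap, with the order AOC, IEC4, IEC12 and IEC2. TPM1 rose by 2.14 on the log2 scale from IEC2 to IEC4 (SE 0.26, adjusted p = 0.000228) and fell by 1.19 from IEC4 to IEC12 (SE 0.26, adjusted p = 0.00530). AOC was higher than IEC4 by 1.54 (SE 0.24, adjusted p = 0.000143). IEC12 remained above IEC2 by 0.95 (SE 0.26, adjusted p = 0.0146), a call that was lost without IEC12 replicate B (0.90, adjusted p = 0.0513) and with libraries scaled to the same sum (0.68, adjusted p = 0.0529).

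TPM2 (ENSSSCG00000005316; chromosome 1, 236402249 to 236410390), a beta tropomyosin abundant in muscle, was the highest of the 10 genes in all 9 IEC libraries except IEC12 replicate A. Its FPKM was 96.3, 82.1 and 95.4 in IEC2, 242.7, 244 and 339.6 in IEC4 and 39.2, 84.7 and 88.5 in IEC12. It was listed at 0.788, 0.812 and 0.575 in AOC, far under every IEC library. TPM2 rose by 1.57 from IEC2 to IEC4 (SE 0.28, adjusted p = 0.00224) and fell by 2.01 from IEC4 to IEC12 (SE 0.28, adjusted p = 0.000572), whereas IEC12 and IEC2 overlapped (log2 fold change -0.45, SE 0.28, adjusted p = 0.229). The log2 fold change of AOC against IEC12 was -5.29 (SE 0.26, adjusted p = 1.13e-08). IEC12 replicate A, the lowest of the 9 for TPM2, was also the library with 15.01% of its FPKM from mitochondrial genes, and the part of this in its level was not tested.

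The ratio of TPM2 to TPM1 within a library was 3.41 to 4.05 in IEC2, 1.88 to 3.09 in IEC4, 0.883 to 1.90 in IEC12 and 0.00200 to 0.00268 in AOC. IEC4 and IEC12 overlapped (exact permutation test, two-sided, p = 0.2), and all other pairs of groups were separate (p = 0.1). TPM4, a tropomyosin of non-muscle cells, had FPKM 696 to 814 in AOC and 766 to 812 in IEC2, so the low TPM2 of AOC was not shared by TPM4 or TPM1.

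**Figure D2:**
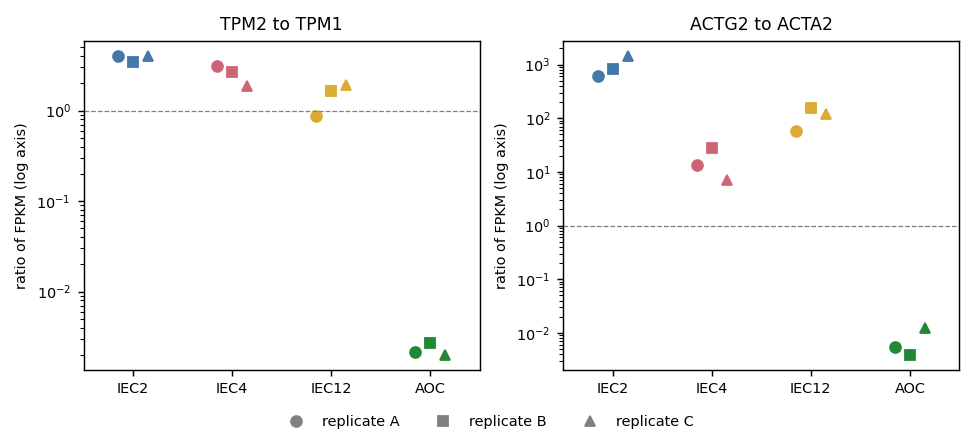
Ratio of FPKM within each library (y axis, log scale) for TPM2 to TPM1 and for ACTG2 to ACTA2 in IEC2, IEC4, IEC12 and AOC (x axis), 1 symbol per replicate and a dashed line at a ratio of 1. In AOC both ratios lay at or below 0.0125, while in the IEC libraries they lay between 0.883 and 1463. ACTA2 was at most 0.146 FPKM in IEC2 and 0.131 in IEC12, and ACTG2 at most 0.0700 in AOC.

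CALD1 (ENSSSCG00000016535; chromosome 18, 14267955 to 14486641), which binds actin and inhibits the myosin ATPase, stood at FPKM 1.92, 2.55 and 2.67 in IEC2, 14.6, 17.0 and 37.9 in IEC4, 6.79, 7.43 and 5.87 in IEC12 and 38.2, 39.3 and 36.7 in AOC. It rose by 2.72 from IEC2 to IEC4 (SE 0.31, adjusted p = 0.000152) and fell by 1.53 from IEC4 to IEC12 (SE 0.31, adjusted p = 0.00354). IEC12 stayed above IEC2 in every library, by 1.19 (SE 0.31, adjusted p = 0.0116). The levels of CALD1 thus had the same order of groups as those of TPM1. AOC and IEC4 overlapped through IEC4 replicate C, and the log2 fold change of 0.82 (SE 0.27, adjusted p = 0.0194) was not called without IEC4 replicate A (0.56, adjusted p = 0.0881), IEC4 replicate B (0.66, adjusted p = 0.0784) or AOC replicate B (0.79, adjusted p = 0.0505), nor with libraries scaled to the same sum (0.56, adjusted p = 0.0719).

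MYL9 (ENSSSCG00000036402; chromosome 17, 39788165 to 39795240), the light chain whose phosphorylation starts contraction, had the largest change of the 10 genes between IEC stages on the log2 scale. Its FPKM was 1.83, 1.86 and 1.44 in IEC2, 25.9, 19.0 and 41.3 in IEC4, 0.373, 0.254 and 0.956 in IEC12 and 2.51, 2.01 and 1.07 in AOC. IEC4 stood apart from every other group. MYL9 rose by 3.39 from IEC2 to IEC4 (SE 0.28, adjusted p = 2.84e-05) and fell by 4.24 from IEC4 to IEC12 (SE 0.28, adjusted p = 1.07e-05). IEC12 ended below IEC2 without overlap (log2 fold change -0.85, SE 0.28, adjusted p = 0.0343), but this call was lost without filtering (adjusted p = 0.0720) and without any single IEC2 library or IEC12 replicate A or B (adjusted p = 0.0597 to 0.119). AOC overlapped with IEC2 (log2 fold change 0.05, SE 0.29, adjusted p = 0.893), and the sign turned to -0.16 with libraries scaled to the same sum. AOC was above IEC12 by 0.90 (SE 0.29, adjusted p = 0.0174), a call lost without AOC replicate A (0.74, adjusted p = 0.0739), AOC replicate B (0.85, adjusted p = 0.0544) or IEC12 replicate B (0.77, adjusted p = 0.0680).

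DES (ENSSSCG00000020785; chromosome 15, 121428539 to 121435426), the intermediate filament protein of muscle, was listed at 0 in the 3 IEC2 and the 3 AOC libraries. It stood at FPKM 1.53, 1.32 and 1.55 in IEC4 and at 0, 0.0369 and 0.147 in IEC12. IEC4 was the only group with a value of 1 or more. DES rose from IEC2 to IEC4 (adjusted p = 0.000128) and fell by 1.22 on the log2 scale from IEC4 to IEC12 (SE 0.14, adjusted p = 0.000220). DES passed the filter for testing only through IEC4, so this difference was built into being tested. No fold is given against a group listed at 0. VIM, the intermediate filament protein of mesenchymal cells, had FPKM 267 to 290 in IEC4, far above DES.

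The remaining 3 genes never reached an FPKM of 1 and were not tested. TAGLN (ENSSSCG00000015073; chromosome 9, 44561756 to 44567385), an actin-binding protein and an early smooth muscle marker, was listed at 0.108, 0.0489 and 0.161 in IEC2, 0.0970, 0.0457 and 0.222 in IEC4, 0.159, 0.367 and 0.509 in IEC12 and 0, 0.0145 and 0.0144 in AOC. The 3 IEC groups overlapped with each other and AOC lay below them. CNN1 (ENSSSCG00000013614; chromosome 2, 70183370 to 70190756), which inhibits actin-activated myosin, was highest at 0.216 in IEC2 replicate A, overlapped among the IEC groups and was listed at 0 in the 3 AOC libraries. MYH11 lay between 0.0105 and 0.0691 in all 12 libraries. Its identifier (ENSSSCG00000000146) stands in number between those of MYH9 and RBFOX2, which RefSeq places on chromosome 5, whereas RefSeq places MYH11 on chromosome 3 (7002667 to 7143093), and whether these values stand for MYH11 was not tested. The other calponins were more abundant than CNN1: CNN3 had FPKM 60.3 to 359 and CNN2 0.124 to 6.38.

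Set side by side, the contractile genes took their highest share of the FPKM sum in IEC4, and the genes that made up this share differed between the IEC cells and AOC. ACTA2 and DES passed the filter among the IEC libraries only because of IEC4, so a difference for them was built into being tested, and the 7 genes tested are not all 10 members. From IEC2 to IEC4, MYL9, CALD1, TPM1, ACTA2, TPM2 and DES rose and ACTG2 fell. Over all 10542 genes tested, 24.8% were called higher and 12.5% lower, and the median log2 fold change was 0.20. From IEC4 to IEC12, the 7 genes tested all fell, where 26.9% of genes were called lower and 17.3% higher (median -0.15). From IEC2 to IEC12, TPM1 and CALD1 rose, ACTG2 and MYL9 fell, and TPM2, ACTA2 and DES were not called, where 24.2% of genes were called higher and 19.3% lower (median 0.03).

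Against AOC the same 7 genes split. Compared with IEC2, TPM1 (log2 fold change 3.68), CALD1 (3.54) and ACTA2 (2.83) were higher in AOC, ACTG2 (-6.31) and TPM2 (-5.74) were lower, and MYL9 was not called. DES was listed at 0 in every library of both groups, so it could not be called. Of the 11053 genes tested, 26.7% were higher and 37.1% lower in this comparison (median -0.20). Compared with IEC4, TPM1, ACTA2 and CALD1 were higher, and TPM2 (-7.31), ACTG2 (-5.19), MYL9 (-3.34) and DES were lower (DES again passed the filter only through IEC4), where 22.1% of genes were higher and 47.0% lower (median -0.45). Compared with IEC12, ACTA2 (2.84), TPM1 (2.73), CALD1 (2.35) and MYL9 (0.90) were higher and TPM2 and ACTG2 were lower, where 22.4% of genes were higher and 36.2% lower (median -0.21). These 3 comparisons share the AOC libraries and are not independent of each other.

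By the stricter limits of the study (p and adjusted p below 0.001, log2 fold change beyond 3 in either direction), MYL9 was the only member called from IEC2 to IEC4, where 1.18% of genes were called, and from IEC4 to IEC12, where 0.939% were. ACTG2 was the only one from IEC2 to IEC12 (1.22% of genes). AOC passed these limits against IEC2 for TPM1, CALD1, TPM2 and ACTG2 (5.47% of genes), against IEC4 for TPM2, ACTG2 and MYL9 (5.17%) and against IEC12 for TPM2 and ACTG2 (4.41%).

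**Figure D3:**
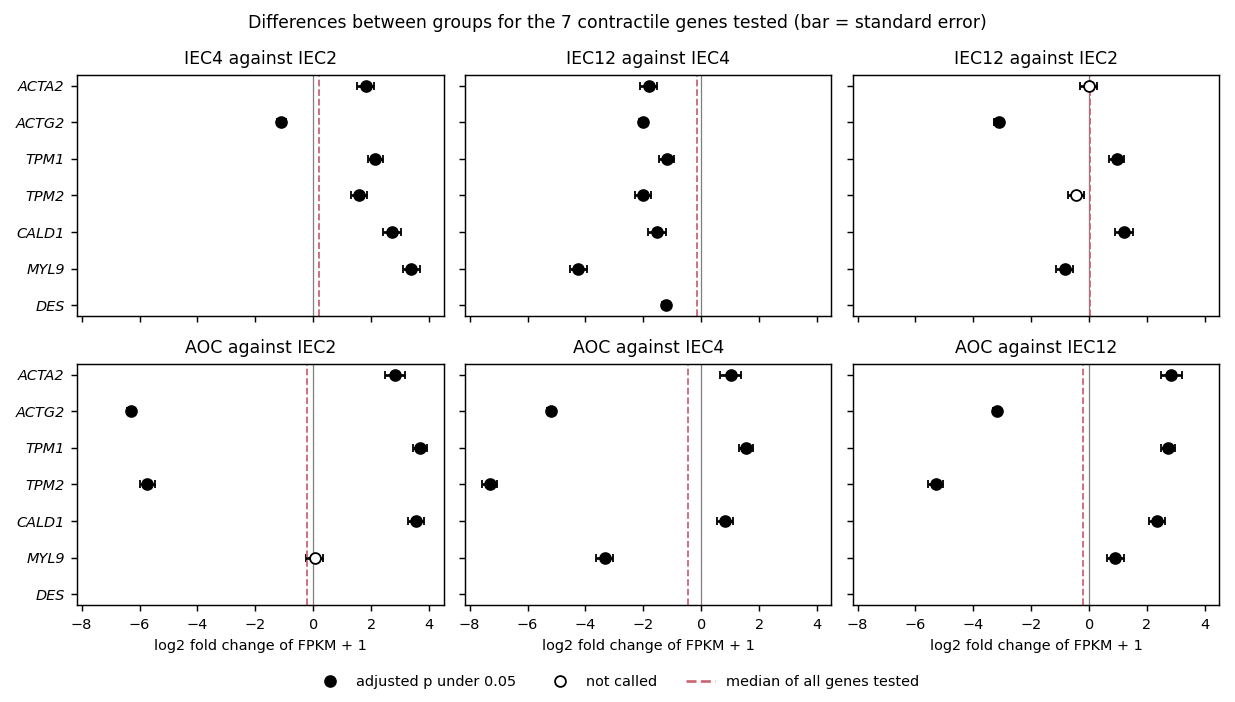
Log2 fold change of FPKM + 1 (x axis; bar, standard error) of the contractile genes tested (y axis) in 6 comparisons of groups; filled points have an adjusted p under 0.05, the dashed line is the median of all genes tested, and DES is left out where a group is listed at 0. From IEC4 to IEC12 all points lie left of 0, with MYL9 at -4.24, and in the 3 comparisons with AOC the points of TPM2 and ACTG2 lie between -7.31 and -3.18 while those of TPM1 and CALD1 lie between 0.82 and 3.68.

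IEC4 replicate C was the highest IEC4 library for 6 of the 7 genes tested, ACTG2 being the exception. Its FPKM was 2.40 times the mean of replicates A and B for CALD1, 2.13 times for TPM1, 2.09 times for ACTA2 and 1.84 times for MYL9. The same library was highest for the 9 epithelial markers found, which summed to 1597 FPKM there against 552 and 717 in the other two. This was not particular to epithelial markers. The other smooth muscle genes (525 against 373 and 321) and the non-muscle paralogues (1718 against 1428 and 1396) were also highest there. So were SRF and its partners (65.8 against 49.4 and 48.7), whereas the mural cell markers were highest in replicate A. Within IEC4, replicate C had the largest FPKM sum (379368) and the most genes at an FPKM of 1 (10467). Over all groups the epithelial sum was 119 to 153 in IEC2, 42.5 to 89.0 in IEC12 and 3.08 to 5.08 in AOC. Of the 8 epithelial markers tested, 7 rose from IEC2 to IEC4 and 8 fell from IEC4 to IEC12, but 5 of them, KRT7 included, passed the filter only through IEC4, so for these a difference was built into being tested. Of the remaining 3, KRT8 (log2 fold changes 4.83 and -5.59) and CLDN6 (1.53 and -2.39) rose and fell, and ESRP1 fell (-2.50). EPCAM was listed at 0 in IEC2 and reached 2.21 in IEC4 replicate C. The epithelial sum was thus highest in the group where most contractile genes were highest among the IEC libraries, and its part in their levels was not tested. Without IEC4 replicate C the calls of MYL9 (3.10), CALD1 (2.32), TPM1 (1.78), TPM2 (1.41) and ACTG2 (-1.04) from IEC2 to IEC4 were kept, and ACTA2 and DES no longer passed the filter.

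**Figure D4:**
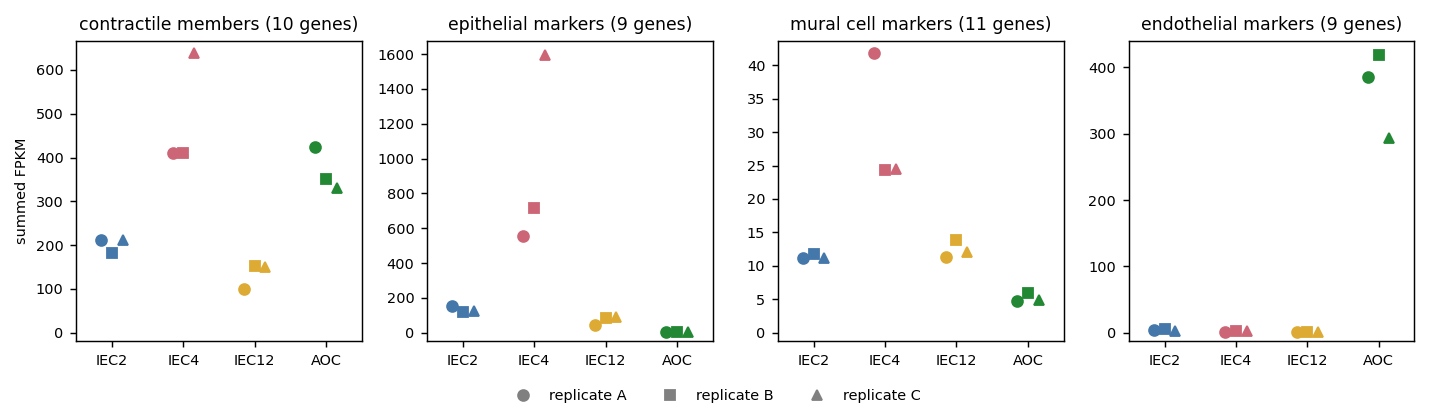
Summed FPKM per library (y axis, linear, scaled for each panel) of the 10 contractile genes and of the epithelial, mural cell and endothelial markers found, in IEC2, IEC4, IEC12 and AOC (x axis), 1 symbol per replicate. IEC4 replicate C is the highest library for the contractile genes (640) and the epithelial markers (1597), and the endothelial markers are high in AOC alone (294 to 419).

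Markers of mural cells, the pericytes and smooth muscle cells around vessels, were mixed. The 11 found summed to 24.3 to 41.8 FPKM in IEC4, 11.2 to 11.7 in IEC2, 11.3 to 13.9 in IEC12 and 4.75 to 5.95 in AOC. RGS5, a pericyte regulator of G protein signalling, was listed at 0 in the 3 IEC2 libraries and had FPKM 24.6, 7.60 and 3.93 in IEC4 and 0.571 to 1.42 in IEC12. PDGFRB, CSPG4, NOTCH3 and ABCC9 stayed under 0.5 in all 12 libraries. In contrast, MCAM reached an FPKM of 1 in all 12 libraries, ANGPT1 in the 9 IEC libraries and KCNJ8 in 6 IEC libraries. RGS5 passed the filter only through IEC4 and NDUFA4L2 only through IEC2, so their calls were built into being tested. Of the other 4 mural markers tested, 2 rose (COX4I2 and ANGPT1) and none fell from IEC2 to IEC4 (all genes: 24.8% higher, 12.5% lower), 1 rose and 2 fell from IEC4 to IEC12 (17.3% higher, 26.9% lower), and 3 were lower in AOC than in IEC12 (36.2% lower).

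SRF and myocardin were low, whereas some of the other factors that work with SRF were not. SRF had FPKM 0.809 to 1.21 in IEC2, 1.03 to 1.35 in IEC4, 0.381 to 0.611 in IEC12 and 0.355 to 0.472 in AOC. Myocardin (MYOCD), the smooth muscle partner of SRF, did not exceed 0.124 in any library. MRTFB, which carries the actin signal to SRF, rose by 0.74 from IEC2 to IEC4 (adjusted p = 0.00957) and fell by 1.06 to IEC12 (adjusted p = 0.00145). MRTFA had FPKM 1.08 to 3.19 in IEC2 and 2.16 to 2.89 in IEC4, which overlapped, and fell by 1.41 to IEC12 (adjusted p = 0.00220). SRF fell by 0.53 from IEC4 to IEC12 (adjusted p = 0.0271), a call that was lost with median-of-ratios scaling (log2 fold change -0.42), and it passed the filter among the IEC libraries only with IEC4. The 2 MRTF genes fell with the contractile genes at this step. They were not highest in AOC, unlike TPM1, CALD1 and ACTA2. MRTFA was lower in AOC than in IEC4 (-1.19, adjusted p = 0.000636) and in IEC2 (-0.99, adjusted p = 0.00230). MRTFB was lower in AOC than in IEC4 (-0.40, adjusted p = 0.0401) and not called against IEC2 (0.34, adjusted p = 0.0781). With median-of-ratios scaling the former call was lost (-0.02) and the latter was gained (0.52).

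KLF4, which holds contractile genes down in smooth muscle cells, rose by 1.28 from IEC2 to IEC4 (adjusted p = 0.00613) and fell by 2.24 to IEC12 (adjusted p = 0.000302), in the same direction as ACTA2 and MYL9. KLF5 rose from FPKM 1.55 to 3.25 in IEC2 to 4.92 to 9.48 in IEC4 (log2 fold change 1.21, adjusted p = 0.00759) and was 0.012 to 0.0478 in AOC. Unlike KLF4, KLF5 did not fall to IEC12 (0.60 against IEC4, adjusted p = 0.104, and 1.80 against IEC2, adjusted p = 0.000688). CSRP1, a LIM protein of smooth muscle, fell by 2.98 from IEC4 to IEC12 (adjusted p = 0.000453), from FPKM 19.2 to 22.5 down to 0.396 to 4.40. CSRP2 fell by 1.40 from IEC2 to IEC4 (adjusted p = 0.0171). TEAD1 had FPKM 5.50 to 14.1 over all libraries and GATA6 0.579 to 2.28, and NKX3-2 and FOXF1 stayed at or below 0.326. Of the 9 genes of this list tested, 3 rose and 1 fell from IEC2 to IEC4, 5 fell and 4 were not called from IEC4 to IEC12, and 3 were higher and 1 lower in AOC than in IEC12, with median log2 fold changes of 0.19, -0.63 and 0.22. Over all genes the shares higher and lower were 24.8% and 12.5%, 17.3% and 26.9%, and 22.4% and 36.2% in these comparisons. Against IEC4, AOC was higher for 0 and lower for 5 of the 9 (all genes: 22.1% and 47.0%). Against IEC2 the counts were 1 and 4 (26.7% and 37.1%). SRF, past the filter only through IEC4, was among those lower in both. With median-of-ratios scaling 1 rose and 4 fell from IEC4 to IEC12, KLF5 being the one that rose. Among the IEC libraries SRF passed the filter only through IEC4 and GATA6 only through IEC12, and the medians above include both. Of the other 7, 3 rose and 1 fell from IEC2 to IEC4, and 0 rose and 4 fell from IEC4 to IEC12.

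Among the 14 genes found that control the phosphorylation of the light chain, the kinase MYLK was highest in IEC4, as was its substrate MYL9. Its FPKM was 0.409, 0.381 and 0.300 in IEC2, 7.75, 6.99 and 4.21 in IEC4, 1.90, 2.44 and 2.47 in IEC12 and 0.834, 0.907 and 0.708 in AOC. The 4 groups did not overlap, and, unlike MYL9, MYLK was highest in replicate A of IEC4. MYLK rose by 2.39 (SE 0.22, adjusted p = 4.49e-05) and then fell by 1.13 (SE 0.22, adjusted p = 0.00278). MYL12A, a non-muscle counterpart of MYL9, was not called from IEC2 to IEC4 (-0.06, adjusted p = 0.866) or from IEC4 to IEC12 (0.13, adjusted p = 0.661). It was higher in AOC than in IEC4 (1.72, adjusted p = 1.77e-05). RHOA, which activates the kinases that hold the phosphatase off, had FPKM 65.3 to 86.3 in the IEC libraries and 111 to 125 in AOC. CALM2, which codes for calmodulin, was higher in AOC than in IEC4 by 1.95 (adjusted p = 2.50e-06). PPP1R14A, the phosphatase inhibitor of smooth muscle, did not exceed 0.279. In all, 3 of the 11 genes tested rose and 8 were not called from IEC2 to IEC4 (all genes: 24.8% higher, 12.5% lower), 2 rose and 3 fell from IEC4 to IEC12 (17.3% and 26.9%), and AOC was higher for 3 and lower for 4 compared with IEC12 (22.4% and 36.2%). With median-of-ratios scaling these counts became 2 higher and 1 lower, 2 and 2, and 3 and 2, with PPP1R12A and PPP1CB no longer called in AOC against IEC12.

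Other genes of smooth muscle and its attachments to the membrane moved less evenly to IEC4 than from IEC4 on. This list shares MYLK, MYOCD, PPP1R12B and PPP1R14A with the lists above. Of its 17 genes tested, 3 rose and 3 fell from IEC2 to IEC4 (median log2 fold change 0.45; all genes, 24.8% higher and 12.5% lower), and 1 rose and 12 fell from IEC4 to IEC12 (median -1.28, against -0.15 over all genes, of which 17.3% were higher and 26.9% lower). CRYAB passed the filter among the IEC libraries only through IEC4 and ITGA8 only through IEC2. The largest falls were those of ACTN1, an alpha-actinin that crosslinks actin (-3.37, adjusted p = 0.000617), and ITGA5, the fibronectin receptor subunit (-3.01, adjusted p = 0.000154). CAV1, a protein of membrane caveolae, rose (0.87, adjusted p = 0.0326), a call that was lost with libraries scaled to the same sum (0.66). AOC was higher than IEC12 for 11 and lower for 5 (all genes: 22.4% and 36.2%). Against IEC4, AOC was higher for 3 and lower for 8 (all genes: 22.1% and 47.0%). Against IEC2 the counts were 6 and 4 (26.7% and 37.1%). ITGA8, past the filter only through IEC2, was among those lower in both. These counts became 4 and 5, and 9 and 4, with median-of-ratios scaling, and 3 and 9, and 4 and 5, with equal sums. CRYAB, a small heat shock protein, had FPKM 50.9, 30.1 and 34.4 in AOC and 0.202 to 0.457 in IEC12 (log2 fold change 4.90, adjusted p = 1.25e-07). The smooth muscle genes LMOD1, PDLIM3, HSPB6 and PPP1R12B stayed below 0.5 in all 12 libraries, like CNN1. Others of the list did not: SYNPO2 reached an FPKM of 1 in all 9 IEC libraries and SMTN in 10 of the 12 libraries.

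The non-muscle counterparts of the contractile genes moved in both directions from IEC2 to IEC4 and downwards where called from IEC4 to IEC12. ACTG1, the cytoplasmic gamma actin, had FPKM 792 to 933 in IEC2, 382 to 507 in IEC4, 178 to 339 in IEC12 and 393 to 576 in AOC. It fell by 0.99 from IEC2 to IEC4 (SE 0.23, adjusted p = 0.00767) and by 0.69 to IEC12 (SE 0.23, adjusted p = 0.0323), the second call being lost with median-of-ratios scaling (log2 fold change -0.46). ACTB, the cytoplasmic beta actin, had FPKM 44.3 to 60.3, 56.7 to 78.1, 10.03 to 38.9 and 39.9 to 79.8 in the same order of groups. Actin genes are nearly alike in sequence, and how reads that match several of them were counted is not given in the sources used here. ACTG1 was higher in AOC than in IEC12 (0.94, adjusted p = 0.00397). The part of such reads in the ACTG2 and ACTA2 values was not tested. TPM4 fell by 0.49 from IEC2 to IEC4 (adjusted p = 0.0315) and by 0.93 to IEC12 (adjusted p = 0.00133), against the rise of TPM1 and TPM2 to IEC4. Of the 9 counterparts tested, 2 rose (CNN2 and MYH9, the latter past the filter among the IEC libraries only with IEC4) and 4 fell from IEC2 to IEC4, where 24.8% of all genes were higher and 12.5% lower. From IEC4 to IEC12, 6 fell and 3 were not called (all genes: 26.9% lower), and 7 were higher and 2 not called in AOC against IEC12 (22.4% higher). Against IEC4, AOC was higher for 4 and lower for 2 (all genes: 22.1% and 47.0%). Against IEC2 the counts were 3 and 3 (26.7% and 37.1%).

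**Figure D5:**
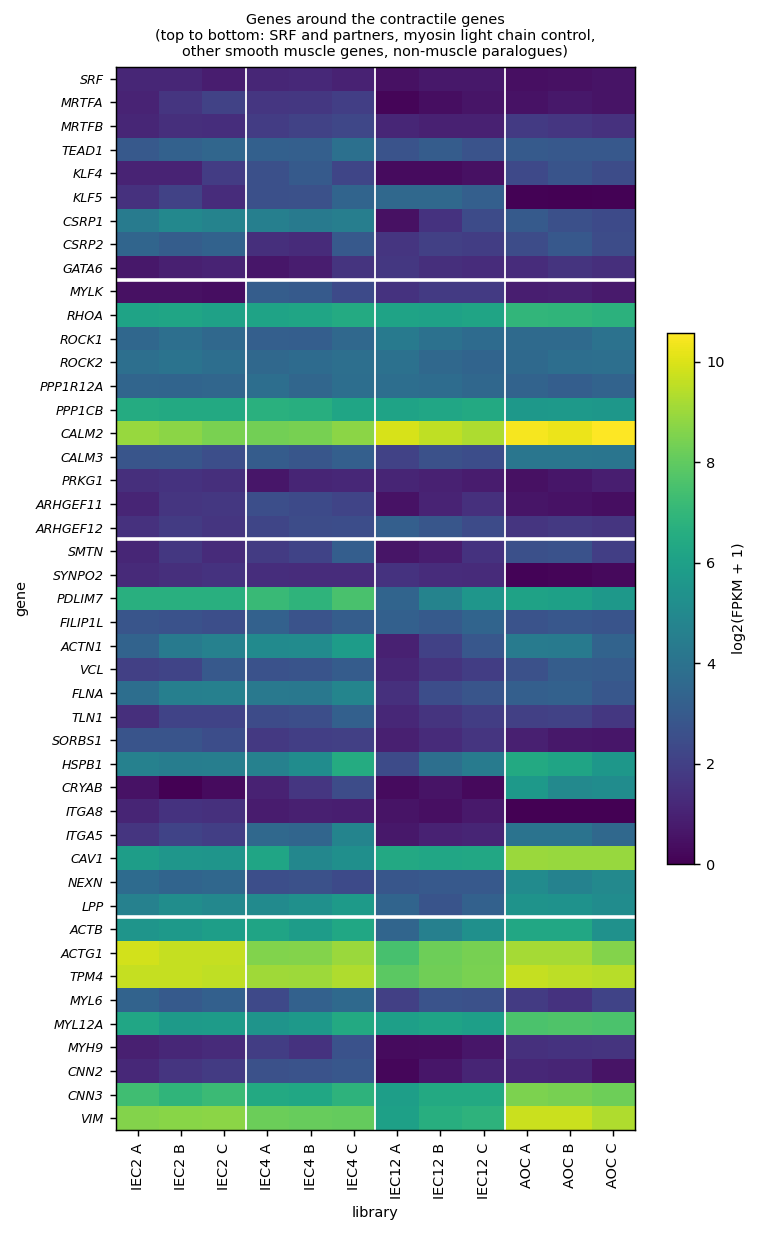
Colour gives log2(FPKM + 1) of the 45 genes (rows) that reached FPKM 1 in 3 or more of the 12 libraries (columns), from 4 lists: SRF and its partners, myosin light chain control, other smooth muscle genes and non-muscle paralogues. MYLK is brightest in the IEC4 libraries (FPKM 4.21 to 7.75), CRYAB in AOC (30.1 to 50.9), and ACTN1, FLNA and PDLIM7 darken from IEC4 to IEC12.

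By the root mean square difference of z-scores of log2(FPKM + 1) over the 12 libraries, the members most alike in profile were TPM1 and CALD1 (0.214), MYL9 and DES (0.314), ACTA2 and TPM1 (0.367), ACTA2 and CALD1 (0.433) and TPM2 and ACTG2 (0.462), where 0 would be the same profile. Among the 9152 other genes searched, the profiles nearest to the mean of the 7 members tested were those of LAMA5, CCDC8, LMO7, KRT7 and COL1A1 (0.194 to 0.220), all highest in IEC4. Outside IEC4 their group means were under FPKM 1, except LMO7 in AOC (1.05). This mean joins members of unlike profile, such as TPM1 and ACTG2 (1.90), and 3 of the 7 were highest in AOC. The nearest single genes were PEAR1 for ACTA2 (0.241), BCL2L1 for MYL9 (0.182), ABCG2A for TPM1 (0.156), CYP2D6 for TPM2 (0.124), PDGFD for CALD1 (0.173), CDC73 for ACTG2 (0.0901) and TMEM108 for DES (0.105). With a pseudocount of 0.1 the nearest gene was another for 4 of the 7 (MYL9, TPM2, CALD1 and ACTG2). These distances are descriptions over libraries of 4 groups and carry no test.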

How the data were processed

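RNA of 12 libraries was sequenced after Smart-Seq2 amplification (SMARTER mRNA-seq kit, per the labels). The authors deposited FPKM values, 1 per gene and library; the submitters' processing notes name Bowtie2 2.2.3, TopHat2 2.0.12, Cufflinks 2.2.1 and the pig build susScr11. The annotation and any scaling between libraries are not given in the sources used here. Symbols came from a gene name table, which held 13998 of 19681 identifiers, and positions from RefSeq (Sscrofa11.1), matched by symbol.

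limma 3.58.1 (R 4.3.3; trend on mean expression) was run on log2(FPKM + 1) of genes that reached FPKM 1 in 3 or more libraries, with IEC comparisons fitted in 9 libraries and AOC comparisons in 12. The code was tested on simulated data. Python 3.11.15 and SciPy 1.17.1 gave the exact tests. No replicates had identical values. The 10 genes and all lists were chosen with earlier results of these data known. The genes named are all 10 members, SRF and its partners, near paralogues, genes nearest in profile and, from other lists, up to 2 called genes per direction with the largest change; further genes were named after their values were seen. Alternatives were another pseudocount (0.1), no filter, a fit of the 2 groups alone, a replicate block, 2 scalings, variance without trend, the study's limits and each replicate left out; the scalings of the other lists were added after seeing the data. Libraries named iPS or S were not analysed here. A gene of the light chain control list was left out and is not reported here.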

Additional observations from a re-analysis of the deposited data

How the results depend on the processing

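Over the 10 to 13 alternatives per gene and comparison, the other calls of the 7 genes kept their direction and their side of the threshold, apart from those named in the report. Without an IEC4 library, ACTA2 and DES no longer passed the filter of the IEC libraries. Under the study's limits 1 member was called from IEC2 to IEC4, 1 from IEC4 to IEC12, 1 from IEC2 to IEC12, 3 between AOC and IEC4 and 2 between AOC and IEC12, because a log2 fold change above 3 is required. With 1 replicate left out, 2 to 4 members were called from IEC2 to IEC12 (2 without IEC12 replicate B) and 4 to 7 between AOC and IEC4 (4 without IEC4 replicate B). Where neither was called, the sign of ACTA2 from IEC2 to IEC12 turned with a replicate left out, over a range of -0.042 to 0.017. The sign of MYL9 between AOC and IEC2 turned to -0.16 with equal sums and ranged from -0.11 to 0.27 with a replicate left out; the cause was not tested.

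Scaling by median of ratios moved the share of all calls that were higher from 66.5 to 50.2% (IEC4 against IEC2), from 39.2 to 51.8% (IEC12 against IEC4), from 32.0 to 49.7% (AOC against IEC4) and from 38.2 to 50.5% (AOC against IEC12). Equal sums moved it to 25.9% (IEC12 against IEC4), from 55.7 to 36.8% (IEC12 against IEC2) and from 41.9 to 31.5% (AOC against IEC2). Deviations of libraries with the same replicate letter correlated by -0.27 to 0.16 on average per pair of groups. Single correlations ran from -0.51 (IEC12 and AOC, replicate C) to 0.25 (IEC2 and IEC12, replicate A). Whether IEC libraries of the same letter came from the same induction cannot be told from these values. With the letter as a replicate block, 7, 7, 4, 5, 7 and 6 members were called in the 6 comparisons in the order of the report, the same counts as without it. FPKM values carry no depth, so values under 1 are given without an interval. In the other lists, checked under both scalings after seeing the data, 282 of 451 tests by gene and comparison were called; median of ratios lost 20 and added 28, equal sums lost 11 and added 20, and none turned to the opposite call. With a pseudocount of 0.1, 1 of the 5 genes nearest in profile to the members was shared (KRT7).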

Other observations

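A pair of troponin genes of slow and cardiac muscle moved with the contractile genes. TNNT1, the slow skeletal troponin T, had FPKM 6.30, 5.32 and 8.77 in IEC2, 45.8, 45.3 and 60.1 in IEC4, 2.72, 8.13 and 9.23 in IEC12 and 0.0885 to 0.160 in AOC. TNNC1, the troponin C of slow and cardiac muscle, had FPKM 0, 0.0368 and 0 in IEC2, 7.46, 12.2 and 13.5 in IEC4, 0.776, 1.21 and 0.880 in IEC12 and at most 0.0891 in AOC. IEC4 did not overlap with any other group for either gene. With limma, TNNT1 rose by 2.73 (adjusted p = 0.000334) and fell by 2.86 (adjusted p = 0.000285), and TNNC1 rose by 3.53 (adjusted p = 5.35e-06) and fell by 2.59 (adjusted p = 4.16e-05) from IEC2 to IEC4 and on to IEC12. TNNC1 passed the filter only through IEC4, so its difference was built into being tested. They were the only 2 of the 17 striated muscle genes found that were tested among the IEC libraries. The sarcomeric actins ACTC1 and ACTA1 and the myosin heavy chain MYH6 stayed below 0.5 in all 12 libraries, and MYL3 reached 1.58 in IEC4 replicate C only.

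Markers of other cell types gave these counts from IEC2 to IEC4 and from IEC4 to IEC12. Over all genes 24.8% were higher and 12.5% lower in the first comparison, and 17.3% higher and 26.9% lower in the second. Of 5 fibroblast markers tested, 1 rose and 2 fell, then 1 rose and 1 fell, and the second count became 2 and 1 with median-of-ratios scaling and 0 and 1 with equal sums. Of 4 mesoderm markers tested, 2 rose and 1 fell, then none rose and 1 fell, and the second count became 2 and 1 with median-of-ratios scaling. In each of these lists 2 markers passed the filter only through the group where they were highest (COL1A1 and PDGFRA, and HAND1 and PDGFRA), which built in a difference. Only 2 of the 8 pluripotency markers were found, and the 1 tested, LIN28A, reached FPKM 1 in IEC4 alone. The 1 endothelial marker tested among the IEC libraries was KDR, the VEGF receptor, with FPKM 2.42 to 3.99 in IEC2 and at most 0.302 in IEC4, and it passed the filter only through IEC2.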
